A study of Mus musculus with 6 samples.

Results

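Genes of the plasminogen activation system, and serpins and a serine protease set beside them, were described by 7 genes chosen by symbol. These genes, and the lists used further below, were chosen with earlier results of these data known. Plat, Plau, Plaur and Serpine2 belong to the system itself, Serpinf1 and Serpinb5 were taken as further serpins, and Htra1 is a secreted protease outside the cascade. All 7 were found among the 41388 Ensembl genes of the count tables, and 6 of them passed the filter on low counts. RNA-seq covered 3 TIC samples and 3 samples of the non-CD24+CD90+ fraction (the other tumor cells), all sorted from mammary tumors of female FVB/N-TgN(MMTVPyVT)634Mul/J mice. In these mice the MMTV promoter drives the polyoma middle T oncogene in the mammary epithelium, and the tumors metastasize. TICs (tumor initiating cells) were the CD24+CD90+CD45- cells of 12-week-old animals without further treatment. The comparison group was the CD45- cells negative for either or both markers, although the series description names double-negative cells only. A sample combined the cells of 4 sorts, so a pooled sample and not a mouse was the replicate, and in sorted pools fewer cells of a type and less RNA per cell cannot be told apart.

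Plasmin is the broad serine protease that dissolves fibrin and cleaves matrix proteins, and it is made from plasminogen by tissue-type (tPA) or urokinase-type (uPA) plasminogen activator. uPA acts on the cell surface through its receptor uPAR, while serpins such as protease nexin-1 trap the activators in a covalent complex. In breast cancer this system is known for its link with invasion, and maspin is known as a serpin of the normal myoepithelium.

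Total counts per sample ranged from 6781239 to 9100552, so 3 counts corresponded to 0.33 to 0.44 CPM (counts of a gene scaled to a common library size). The genes of the sorting markers did not separate the groups. Thy1, which encodes CD90, lay at 21.6 to 75.9 CPM in other tumor cells and at 70.3 to 207 CPM in TICs, and Cd24a lay at 402 to 602 and 315 to 440 CPM. Ptprc, which encodes CD45, had a count in 1 sample only, replicate 1 of other tumor cells, at 4.82 CPM. Luminal markers were present in every sample, with Krt18 at 1552 CPM or more.

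Of the 6 genes tested, 4 were higher in TICs at an adjusted p-value below 0.1, namely Plat, Serpine2, Serpinf1 and Htra1. None was lower, and none had an unadjusted p-value below 0.05 in that direction (edgeR's exactTest). Over all 12192 genes tested, 1.55% were called, 1.36% as higher and 0.189% as lower in TICs. Because the members were chosen with earlier results known, these shares are set beside their count as a description only. The 4 called genes also had no overlap, all TIC values lying above all values of the other tumor cells, an order that held for 7.69% of all genes tested. Plaur and Serpinb5 overlapped between the groups, and Plau was too low to be tested. The 2 other tools differed: edgeR's quasi-likelihood test called 2 of the 6, Serpine2 and Serpinf1, whereas DESeq2 called the same 4 genes. The former called 0.41% of all genes (0.402% higher, 0.0082% lower) and the latter 2.51% (1.89% higher, 0.615% lower). At an adjusted p-value below 0.05, exactTest called 3 of the 6, without Htra1, beside 0.951% of all genes (0.894% higher, 0.0574% lower). The smallest p-value of an exact permutation test on 3 against 3 samples is 0.1, and all 4 genes reached it. This restates that their groups did not overlap and adds no further support.

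**Figure D1:**
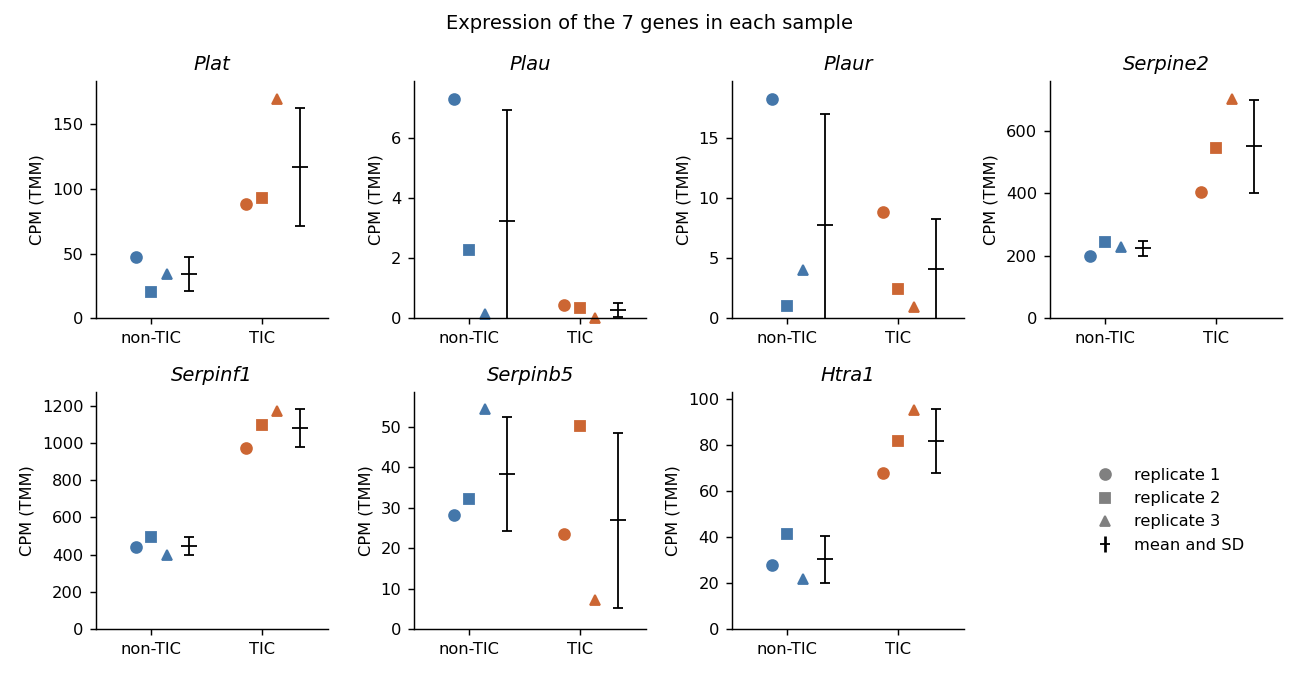
CPM (TMM-normalized, linear axes from 0) of each of the 7 genes in the 3 samples of other tumor cells (non-TIC, blue) and the 3 samples of TICs (orange), with the mean and SD as black bars, cut at 0 where they reach below it. The groups do not overlap for Plat, Serpine2, Serpinf1 and Htra1, whereas they overlap for Plau, Plaur and Serpinb5.

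The promoter sequences are shown for 3 of the 4 genes that were higher in TICs and for Serpinb5, which was not, because members that moved together can be set beside each other and beside one that did not. They come from the RefSeq table of GRCm38.p6, which held 5 of the 7 genes. Each stretch starts 250 bases before the RefSeq start and ends before the first GENCODE M21 exon that it reaches, written 5′ to 3′ on the strand of the gene. Capitals mark every match, on either strand, to 1 of 6 motifs. The GC box was searched as GGGCGG and the TATA box as TATAAA. For the AP-1 type site the letters were TGANTCA, and for the E2 box of the Snail and ZEB factors they were CACCTG. The CCAAT box was searched by the letters of its name, and the cyclic AMP response element (CRE) as TGACGTCA. Matches can overlap each other, as GC boxes do in Serpine2. The stretch of Serpine2 lies inside the annotated gene, because 1 annotated transcript starts further upstream, and between exons of that transcript.
Serpine2 (chr1:79858697-79858915, minus strand): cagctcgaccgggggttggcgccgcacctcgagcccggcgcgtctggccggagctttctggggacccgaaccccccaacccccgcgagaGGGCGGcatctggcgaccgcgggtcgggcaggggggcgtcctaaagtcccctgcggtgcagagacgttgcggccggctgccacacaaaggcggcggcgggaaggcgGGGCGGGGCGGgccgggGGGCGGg
Serpinf1 (chr11:75422702-75422873, minus strand): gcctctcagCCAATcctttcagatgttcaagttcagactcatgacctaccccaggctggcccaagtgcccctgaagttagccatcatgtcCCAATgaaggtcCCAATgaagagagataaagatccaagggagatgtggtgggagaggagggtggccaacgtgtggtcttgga
Htra1 (chr7:130935953-130936110, plus strand): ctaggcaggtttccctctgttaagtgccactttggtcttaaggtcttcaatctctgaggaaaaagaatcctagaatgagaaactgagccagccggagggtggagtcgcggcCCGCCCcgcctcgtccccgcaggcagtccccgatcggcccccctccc
Serpinb5 (chr1:106860925-106861172, plus strand): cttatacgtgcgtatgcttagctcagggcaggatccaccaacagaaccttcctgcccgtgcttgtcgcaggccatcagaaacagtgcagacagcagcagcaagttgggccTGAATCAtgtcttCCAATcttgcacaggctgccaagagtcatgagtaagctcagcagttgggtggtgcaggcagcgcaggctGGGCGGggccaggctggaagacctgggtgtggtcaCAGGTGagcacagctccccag

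The 3 promoters of the genes higher in TICs shared none of these motifs throughout. Over the full 250 bases, Serpine2 had 6 GC boxes, Htra1 had 1 and Serpinf1 had 0, and 32.7% of 32851 promoter windows of the same length held at least 1. Serpinf1 had 3 CCAAT boxes, Htra1 had 1 and Serpine2 had 0, with 33.8% of all windows holding one. Serpinb5 held 1 match each to the GC box, the CCAAT box, the AP-1 type site (6.75% of windows) and the E2 box (17.2%). Its AP-1 type match read TGAATCA and rests on the open middle letter of the search. The window of Plaur, not printed, held 3 GC boxes and 1 AP-1 type site that read TGACTCA. The TATA box (12.4% of windows) and the CRE (1.55%) were matched in none of the 5. The share of G and C was 78.8% for Serpine2, 64.8% for Htra1, 59.6% for Plaur, 58.8% for Serpinb5 and 51.6% for Serpinf1, beside a median of 52.4%. A match is a stretch of letters and was not tested for binding.

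Of the transcripts of the activators, that of tPA was the more abundant in every sample. Plat (ENSMUSG00000031538, chromosome 8 of GRCm38, 22757727 to 22782844, plus strand), the gene of tPA, had 47.4, 20.7 and 34.3 CPM in replicates 1 to 3 of other tumor cells. In TICs it had 88.6, 93.3 and 169.8 CPM. TIC replicate 3 stood highest, and the lowest TIC sample was well above the highest sample of the other group. The means were 117.2 ± 45.6 and 34.1 ± 13.4 CPM (SD, n = 3), and Plat rose 3.43-fold, with a log2 fold change of 1.78 ± 0.43 (SE, adjusted p = 0.0125 in edgeR's exactTest). This was the largest fold among the 6 genes tested. The quasi-likelihood test gave an adjusted p of 0.138. The call was also lost without replicate 2 or replicate 3 of other tumor cells (adjusted p = 0.189 and 0.116 from exactTest) and without TIC replicate 3 (adjusted p = 0.159).

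Plau (ENSMUSG00000021822, chromosome 14, 20836660 to 20843385, plus strand) encodes uPA. Its counts were 50, 20 and 1 in other tumor cells and 4, 3 and 0 in TICs. Only replicates 1 and 2 of other tumor cells exceeded 1 CPM, at 7.30 and 2.27 CPM, so Plau failed the filter. TICs held 7 counts in all and other tumor cells 71, most of them in 1 sample. Kept without the filter, Plau had an adjusted p of 1 in exactTest, so a difference was not detectable at this depth and spread. Per kb of exon, Plau made up 28.9%, 22.5% and 1.09% of the sum of Plat and Plau in other tumor cells. In TICs this share was 1.29%, 0.98% and 0%, which overlaps the range of the other group through its replicate 3.

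Plaur (ENSMUSG00000046223, chromosome 7, 24462484 to 24475968, plus strand), the gene of uPAR, varied more between samples of a group than between groups. It had 18.2, 1.02 and 4.01 CPM in other tumor cells and 8.79, 2.45 and 0.92 CPM in TICs. The highest value came from replicate 1 of other tumor cells and the second highest from TIC replicate 1, numbers that do not pair the samples. The log2 fold change came to -0.93 ± 1.55 (SE, adjusted p = 1 in exactTest). Its biological coefficient of variation (the relative spread between replicates that edgeR estimates) was 130.5%, the highest of the 6 genes. Without replicate 1 of other tumor cells the sign turned, to a log2 fold change of 0.70 (adjusted p = 1). That sample also held the highest Plau value.

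Serpine2 (ENSMUSG00000026249, chromosome 1, 79794197 to 79861180, minus strand) encodes protease nexin-1, a serpin that inhibits thrombin as well as tPA and uPA. It had 198, 243 and 229 CPM in other tumor cells and 404, 544 and 703 CPM in TICs. The former lay close together, whereas the TIC samples spread more widely, all of them above. The means were 223.3 ± 22.9 and 550.3 ± 149.5 CPM (SD, n = 3), and Serpine2 rose 2.46-fold, with a log2 fold change of 1.30 ± 0.30 (SE, adjusted p = 0.00641 in exactTest). The quasi-likelihood test gave an adjusted p of 0.0729. Of the 6 fits without 1 sample, 5 kept the call, and it was lost without replicate 1 of other tumor cells (adjusted p = 0.103).

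As activator and inhibitor were both higher, their balance was computed per kb of exon. The ratio of Serpine2 to Plat was 3.15, 8.86 and 5.02 in other tumor cells and 3.43, 4.39 and 3.12 in TICs. The groups overlapped, and their difference did not exceed the spread between replicates (two-sided exact permutation test on log2 ratios, p = 0.3). Both genes were taken because they were higher in TICs, so an overlap was likely from the outset. With 3 samples per group and this spread, the test cannot show that the balance was unchanged.

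Serpinf1 (ENSMUSG00000000753, chromosome 11, 75409769 to 75422701, minus strand) encodes PEDF, a secreted serpin without protease inhibitory activity that is known to restrain blood vessel growth. It was the most abundant of the 7 genes, with 442, 493 and 397 CPM in other tumor cells and 971, 1094 and 1173 CPM in TICs. Both groups were tight, and they were far apart. The means were 444 ± 48.2 and 1079 ± 101.9 CPM (SD, n = 3), and Serpinf1 rose 2.43-fold, with a log2 fold change of 1.28 ± 0.27 (SE, adjusted p = 0.00125 in exactTest). It was called in all 6 fits without 1 sample (adjusted p at most 0.0595) and by the quasi-likelihood test (adjusted p = 0.0499). Its biological coefficient of variation was 22.8%, the lowest of the 6 genes, against 82.3% from the common dispersion of all genes. The estimate for a gene is drawn toward the common one, so it is not the plain spread of its replicates. Other abundant genes had similar values, such as 22.3% for Krt18, 22.8% for Serpinh1 and 22.9% for Anxa2, so this was not particular to Serpinf1.

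Serpinb5 (ENSMUSG00000067006, chromosome 1, 106861173 to 106883348, plus strand), the gene of maspin, had 28.3, 32.1 and 54.4 CPM in other tumor cells. It had 23.4, 50.1 and 7.26 CPM in TICs, so the second highest and the lowest value of all came from TICs. The log2 fold change came to -0.51 ± 0.68 (SE, adjusted p = 1 in exactTest). Without TIC replicate 3, the lowest sample, it was -0.04, and without TIC replicate 2 it was -1.32, with adjusted p-values of 1 and 0.813. The basal and myoepithelial markers, a list of 7 genes that includes Krt5, Krt14 and Trp63, overlapped as well. Their summed level was 590 to 1219 CPM in other tumor cells and 480 to 710 CPM in TICs.

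Htra1 (ENSMUSG00000006205, chromosome 7, 130936111 to 130985660, plus strand) encodes a secreted serine protease outside the plasminogen cascade that cleaves matrix proteins. It had 27.7, 41.4 and 21.7 CPM in other tumor cells and 67.7, 82.0 and 95.5 CPM in TICs, without overlap. The means were 30.3 ± 10.1 and 81.7 ± 13.9 CPM (SD, n = 3), and Htra1 rose 2.69-fold, with a log2 fold change of 1.43 ± 0.44 (SE, adjusted p = 0.0956 in exactTest). This adjusted p-value was just inside the threshold, and only 1 of the 6 fits without 1 sample kept the call, the one without TIC replicate 1 (adjusted p = 0.0755). The log2 fold change itself stayed between 1.24 and 1.73 in these fits. The quasi-likelihood test gave an adjusted p of 0.242.

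**Figure D2:**
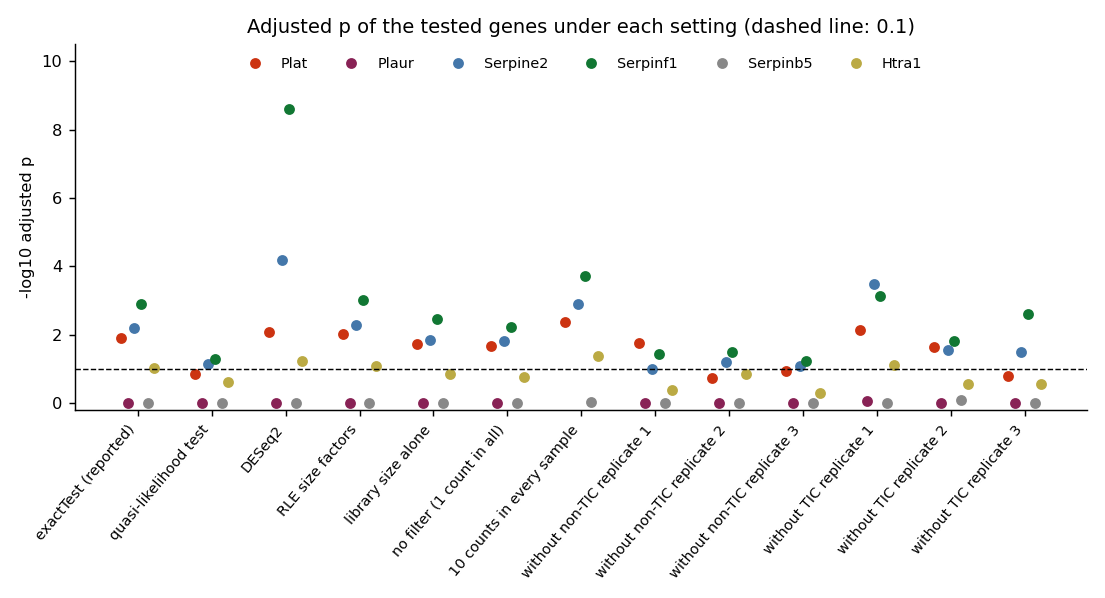
The −log10 of the adjusted p-value of the 6 tested genes (colors, y axis) under the reported exactTest, the other tools, normalizations and filters, and the fits without 1 sample (x axis), with the threshold of 0.1 as a dashed line. Serpinf1 lies above the line in every setting and Serpine2 in all but the fit without replicate 1 of other tumor cells, Htra1 moves across it often, and Plaur and Serpinb5 stay near 0. Plaur was not tested with the filter of 10 counts in every sample.

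Ordered by level, CPM per kb of annotated exon, Serpinf1 led in both groups, at 168 to 209 in other tumor cells and 412 to 497 in TICs. Serpine2 came second, at 23.9 to 29.3 and 48.8 to 84.8 CPM per kb, and neither range reached a neighbour. In TICs the order of the means went on with Htra1 (23.5 to 33.2 CPM per kb), Plat (14.2 to 27.2), Serpinb5 (2.64 to 18.2), Plaur (0.353 to 3.36) and Plau (0 to 0.186). The ranges of Htra1 and Plat, of Plat and Serpinb5, and of Serpinb5 and Plaur overlapped between samples. Within each TIC sample, however, Htra1 was above Plat and Serpinb5 above Plaur, whereas Plat was above Serpinb5 in 2 of the 3. In other tumor cells Serpinb5 came next, at 10.3 to 19.8 CPM per kb, before Htra1 (7.55 to 14.4), Plat (3.31 to 7.60), Plaur (0.390 to 6.97) and Plau (0.0604 to 3.08), each overlapping the next. Within each of these samples Htra1 was above Plat and Plat above Plaur, whereas Serpinb5 was above Htra1, and Plaur above Plau, in 2 of the 3. Exon lengths were those of all annotated transcripts joined, which understates the level of genes with long unused exons.

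The other genes of the plasminogen system came from a list of 25 genes, of which 24 were in the count tables and 14 were tested, with Plat, Plaur and Serpine2 among them. Of the 14, 3 rose and 0 fell (0 with an unadjusted p-value below 0.05 for lower values in exactTest), beside 1.36% and 0.189% of all genes tested, and the median log2 fold change was 0.72 beside -0.01 over all genes tested. Beyond Plat and Serpine2, the one that rose was Lrp1, the endocytic receptor that clears activator and serpin complexes. It had 144, 186 and 261 CPM in other tumor cells and 439, 385 and 554 CPM in TICs, without overlap. Its log2 fold change came to 1.22 ± 0.31 (SE, adjusted p = 0.0210 in exactTest), and the quasi-likelihood test gave an adjusted p of 0.124. The call was lost without replicate 1 or replicate 2 of other tumor cells (adjusted p = 0.254 and 0.243).

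Without Plat, Plaur and Serpine2, 11 genes of this list were tested, and 1 of them, Lrp1, was called. Of the 11, 10 had a positive log2 fold change, beside 6061 of all 12192 genes tested, and the median was 0.48. Anxa2, whose protein binds tPA and plasminogen at the cell surface, was the most abundant and stayed nearly level, at 878.5 ± 32.6 and 893.7 ± 135.0 CPM (log2 fold change 0.02, standard error 0.27, n = 3), and its exons overlap Gm16144 on the opposite strand. Its partner S100a10 had a log2 fold change of 0.96 (adjusted p = 0.630), with 2 TIC samples above and 1 within the range of the other group. Clec3b, whose product tetranectin binds plasminogen, had a log2 fold change of 1.07 (adjusted p = 0.321). Serping1, the C1 inhibitor, had 1.25 (adjusted p = 0.242, all from exactTest), and every TIC sample was above. Igf2r, a receptor that also binds plasminogen and uPAR, had 0.26 (adjusted p = 1), and Eno1, a glycolytic enzyme that can bind plasminogen, had 0.15 (adjusted p = 1). Eno1 may be undercounted, because reads shared with near-identical copies had been removed.

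Plg itself, the gene of plasminogen, had no count in any of the 6 samples. The same held for 7 further genes of the list, Serpinb2, Serpinf2, Serpina5, Cpb2, F12, Masp1 and Hgfac. At these depths 0 counts allow a level of up to 0.33 to 0.44 CPM per sample, a limit that covers counting error only. Plasminogen is known as a liver product carried in plasma. Hgf, whose product is cleaved by related proteases, had counts in 2 TIC samples only, at 3.30 and 0.92 CPM, and was not tested.

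**Figure D3:**
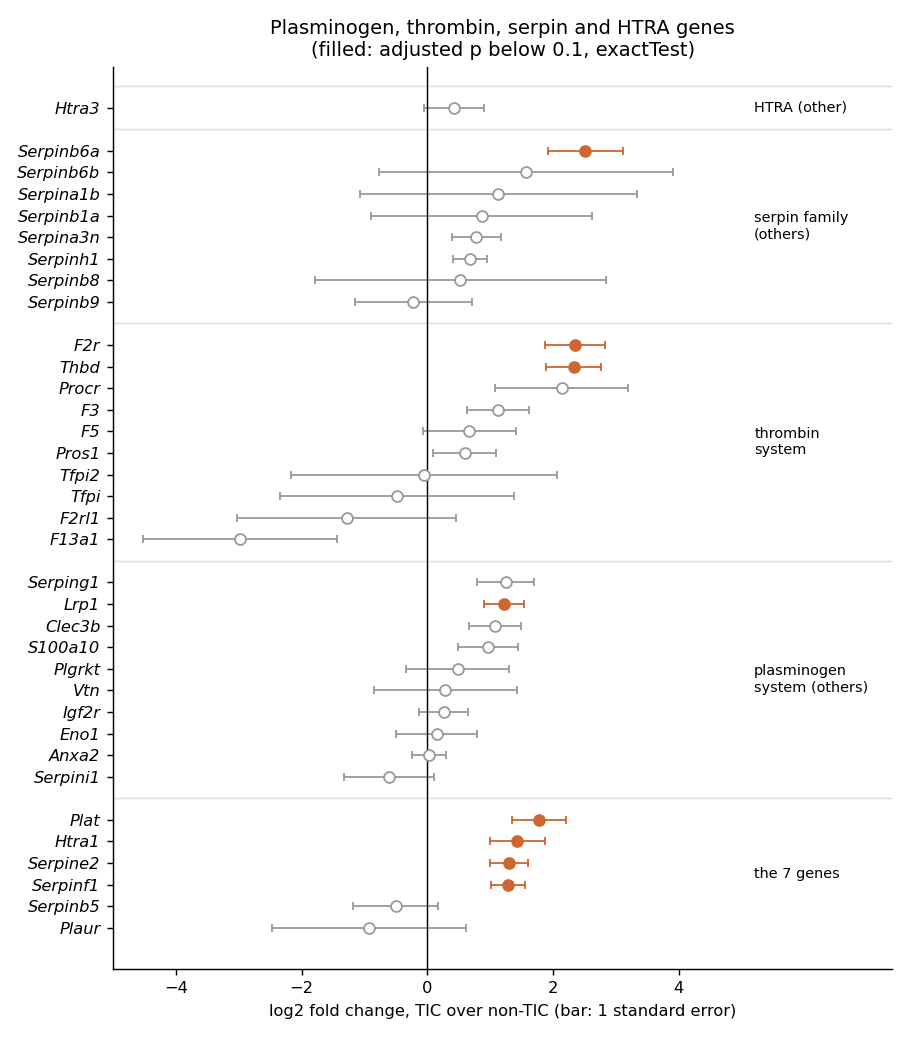
Log2 fold changes of TICs over other tumor cells with 1 standard error (x axis) for the tested genes of the plasminogen, thrombin, serpin and HTRA lists (y axis, each gene once, 1 gene left out). Filled points are genes with an adjusted p-value below 0.1 in exactTest. All filled points lie to the right of 0, and genes with few counts such as Serpinb6b, Serpinb8 and Serpina1b have the widest bars.

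Across the serpin family, every gene whose symbol starts with Serpin, 68 genes were in the tables, 47 had no count in any sample and 14 were tested. Of these 3 rose and 0 fell (0 with an unadjusted p-value below 0.05 for lower values in exactTest), beside 1.36% and 0.189% of all genes. The median log2 fold change was 0.91, against -0.01 over all genes. Besides Serpine2 and Serpinf1, Serpinb6a rose, an intracellular inhibitor of serine proteases. It went from 12.8, 7.72 and 7.01 CPM in other tumor cells to 64.6, 58.3 and 34.4 CPM in TICs, with a log2 fold change of 2.51 ± 0.60 (SE, adjusted p = 0.0133 in exactTest, 0.125 from the quasi-likelihood test). Its call was lost in 3 of the 6 fits without 1 sample, those without replicate 2 or 3 of other tumor cells or TIC replicate 2 (adjusted p = 0.142, 0.128 and 0.115). Its exons overlap those of Nqo2, Ripk1 and 1110046J04Rik on the opposite strand and it has close paralogs, so its counts are uncertain, since the sources do not state whether strand was used.

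Serpinh1, the collagen chaperone HSP47 of the endoplasmic reticulum, was the most abundant serpin that was not called. It had 586.7 ± 43.1 CPM in other tumor cells and 943.3 ± 114.9 CPM in TICs (SD, n = 3). All TIC samples were above, with a log2 fold change of 0.69 ± 0.27 (SE, adjusted p = 0.323 in exactTest), whereas DESeq2 called it (adjusted p = 0.00986). Serpina3n, an acute-phase inhibitor, had a log2 fold change of 0.78 (adjusted p = 0.636), also without overlap. Serpini1, neuroserpin, an inhibitor of tPA, had -0.61 (adjusted p = 1) (all from exactTest). In 7 of the 14 serpins every TIC sample was above, beside 7.69% of all genes, and in 0 every TIC sample was below (7.55%). Serpine2 and Serpinf1, chosen with earlier results known, were among the 7. Without the members, 11 serpins were tested, of which 1 rose and 0 fell in exactTest, beside 1.36% and 0.189% of all genes. Their median log2 fold change was 0.86.

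Because protease nexin-1 is above all an inhibitor of thrombin, 19 genes of the thrombin system were examined, of which 10 were tested, 2 rose and 0 fell (0 with an unadjusted p-value below 0.05 for lower values in exactTest). Over all genes 1.36% rose and 0.189% fell. The median log2 fold change of the list was 0.63, against -0.01 over all genes. F2r, the thrombin receptor PAR1, had 12.6, 12.7 and 26.7 CPM in other tumor cells and 66.7, 82.5 and 115 CPM in TICs, with a log2 fold change of 2.35 ± 0.48 (SE, adjusted p = 0.0013 in exactTest, 0.0729 from the quasi-likelihood test). Thbd, thrombomodulin, which turns thrombin toward protein C, had 24.5, 26.9 and 13.7 CPM against 68.3, 121 and 138 CPM in TICs. Its log2 fold change came to 2.33 ± 0.44 (SE, adjusted p = 0.000466 in exactTest, 0.0538 from the quasi-likelihood test). Both genes were above in every TIC sample and were called in all settings tried. Procr, the protein C receptor, had a log2 fold change of 2.14 (adjusted p = 0.676) and F3, tissue factor, 1.13 (adjusted p = 0.477). Values for the cofactors Pros1 and F5 were 0.60 and 0.67 (adjusted p = 0.984 and 1), and F2rl1, the receptor PAR2, had -1.28 (adjusted p = 1). F13a1, which cross-links fibrin, was lower in every TIC sample, at 0.88, 3.73 and 0 CPM against 6.42, 10.9 and 19.5 CPM, but did not pass (log2 fold change -2.98, standard error 1.55, adjusted p = 0.808). F2, the gene of prothrombin, had no counts.

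Among the 4 HTRA proteases, 2 were tested and Htra1 alone was called, as higher, beside 1.36% of all genes. Htra3, another secreted member, had 41.2 ± 4.5 CPM in other tumor cells and 55.3 ± 22.0 CPM in TICs (SD, n = 3). Its groups overlapped (log2 fold change 0.42, standard error 0.48, adjusted p = 1 from exactTest). Htra2 and Htra4 were listed at 0 in all samples. The exons of Htra2, a mitochondrial protease, overlap those of Loxl3 and Aup1 on the opposite strand.

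Markers of stromal cells moved with the groups in the same direction as Plat, Serpine2, Serpinf1 and Htra1. The summed level of 8 fibroblast markers was 823 to 863 CPM in other tumor cells and 1523 to 2902 CPM in TICs, 2.82 times higher in the mean. Of these markers 5 were called higher, Col3a1, Fbln1, Dpt, Dcn and Mfap5, and none was at 0. The sum of 9 pericyte and smooth muscle markers was 478 to 575 and 928 to 1542 CPM, 2.28 times higher, with Rgs5 called. For 9 endothelial markers it was 143 to 151 and 178 to 626 CPM, with none called by exactTest or DESeq2 and 4 with an unadjusted p-value below 0.05 for higher values in exactTest. The 7 luminal markers went the other way, at 5780 to 6172 and 3799 to 4389 CPM, with none called by exactTest, 2 by DESeq2 and 2 with an unadjusted p-value below 0.05 in exactTest. The 8 leukocyte markers overlapped, at 81.2 to 142 and 81.8 to 175 CPM, with Cd3e and Adgre1 at 0. Most of this sum was S100a8 alone, at 68.8 to 118 CPM in other tumor cells and 77.7 to 147 CPM in TICs.

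Set against the fibroblast markers of the same sample, the 4 genes overlapped between the groups. The 4 genes were taken because they were higher in TICs, and the marker sum was itself 2.82 times higher, so an overlap was likely from the outset. Much of the sum was Dcn, at 577, 502 and 472 CPM of 863, 823 and 861 CPM in other tumor cells. In TICs Dcn held 732, 1617 and 1983 CPM of 1523, 2755 and 2902 CPM. Per 1000 CPM of these markers, Serpinf1 had 512, 599.5 and 461 CPM in other tumor cells and 637, 397 and 404 CPM in TICs (exact permutation p = 0.6). Serpine2 had 230, 295 and 266 CPM against 265, 198 and 242 CPM (exact permutation p = 0.4). Plat had 55.0, 25.1 and 39.9 CPM against 58.2, 33.8 and 58.5 CPM (exact permutation p = 0.5). Htra1 had 32.1, 50.4 and 25.3 CPM against 44.4, 29.7 and 32.9 CPM (exact permutation p = 0.9). Serpinb5, which overlapped in plain CPM, was lower in every TIC sample on this scale. It had 32.8, 39.0 and 63.2 CPM in other tumor cells and 15.4, 18.2 and 2.50 CPM in TICs (exact permutation p = 0.1, the smallest possible). The marker sum was itself higher in every TIC sample, so a gene at an unchanged level would also come out lower. This order is therefore no result about Serpinb5 itself. These ratios were chosen after the values were seen, and which cells the transcripts came from was not tested.

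**Figure D4:**
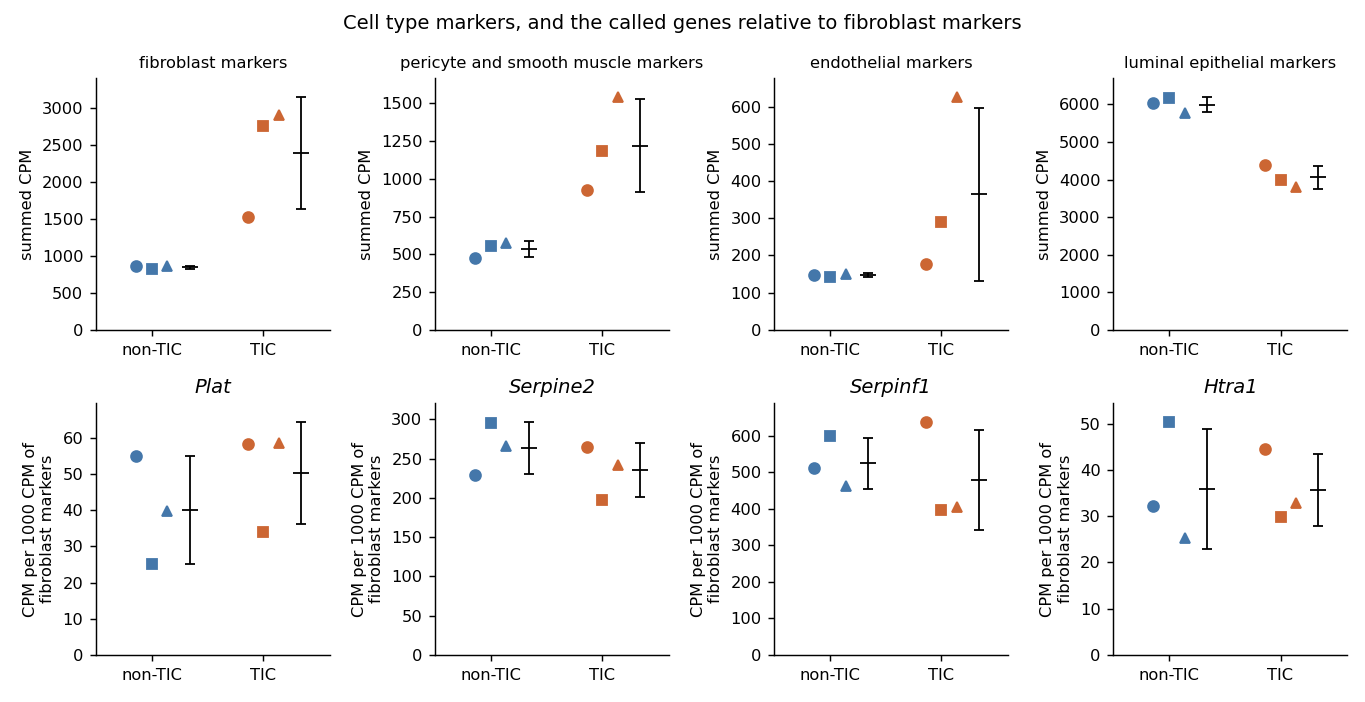
Upper row, summed CPM of the marker genes of 4 cell types in the 6 samples (linear axes from 0, non-TIC for other tumor cells, black bars for the mean and SD). Lower row, CPM of the 4 called genes per 1000 CPM of fibroblast markers in the same sample. The stromal sums are higher and the luminal sum lower in every TIC sample, whereas the ratios of the lower row overlap between the groups.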

How the data were processed

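The analysis used raw RNA-seq counts of 3 TIC and 3 comparison samples (non-CD24+CD90+ tumor cells, called other tumor cells), grouped by the description label. Per the labels and methods, the authors used Trimmomatic (0.32) for trimming and STAR (2.4.0) for alignment to GRCm38, removed reads that were not uniquely mapped with samtools (1.1), and deposited raw counts per Ensembl gene from HTSeq. The HTSeq version, the annotation release and the use of strand are not given in the sources used here. Symbols came from a separate list of gene names matched by Ensembl identifier (40254 of 41388 genes had a symbol). Coordinates and exon lengths came from GENCODE M21 on GRCm38 (40340 genes).

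Genes above 1 CPM in at least 3 samples were kept. Counts were normalized by TMM and compared with exactTest in edgeR (4.0.16, R 4.3.3), the test named in the methods of the study, with common and tagwise dispersions. P-values were adjusted by Benjamini-Hochberg over 12192 genes (threshold 0.1). CPM are TMM-normalized. Standard errors came from the negative binomial fit. Alternatives were edgeR's quasi-likelihood test, DESeq2 (1.42.0), other normalizations, filters and thresholds, and each sample left out. The members and lists were chosen with earlier results of these data known. Named genes were the 7 members, every called gene and up to 6 abundant genes of each list, called markers, and the 3 nearest profiles. A gene counted in the plasminogen and serpin lists is not reported here by name. The scripts were tested on simulated counts. P-values set the difference between the groups against the spread between pooled samples.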

Additional observations from a re-analysis of the deposited data

How the results depend on the processing

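The count of 4 called members fell to 2 in the quasi-likelihood test, was 2 to 4 in the 6 fits without 1 sample (2 without TIC replicate 3 or any sample of the other tumor cells), and was 3 or 4 under the other alternatives. Without a sample the calls left were Serpinf1 in all 6 fits, with Serpine2 in 5, Plat in 3 and Htra1 in 1. The calls over all genes moved from 189 to 50 in the quasi-likelihood test, 306 in DESeq2, 112 without the filter and 116 at an adjusted p below 0.05, and ranged from 72 (without replicate 3 of other tumor cells) to 323 (without TIC replicate 1). The plasminogen list went from 3 to 1 in the quasi-likelihood test and from 1 to 4 without a sample, the serpin family from 2 to 3 and the thrombin list stayed at 2. The HTRA list went from 1 to 0 in the quasi-likelihood test, with library size alone, without the filter and at the stricter threshold (unadjusted p = 0.00146 for Htra1 in exactTest), and 0 to 1 without a sample. Plaur ranged from -2.16 (without TIC replicate 1) to a reversed log2 fold change of 0.70 without replicate 1 of other tumor cells. Plau was tested only without the filter (adjusted p = 1). The cause of these changes was not tested. Every member called kept its positive sign in all settings. No paired analysis was possible because the labels number the samples 1 to 6 and give no numbers shared between the groups. Depth limits Plau, which had 7 counts in all TIC samples, and the spread between replicates was widest for Plaur among the 6 tested members.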

Other observations

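Over the 6 samples, the profile of each tested member was compared with those of all other tested genes, as the root mean square difference between log2 CPM centred per gene. The profiles closest to Serpine2 were those of Clmp, a cell adhesion molecule (0.08), Rgs5, a pericyte gene (0.13), and Mmp14, the membrane-bound matrix metalloproteinase (0.13). All 3 were also called higher in TICs by exactTest (adjusted p = 0.0948, 0.000466 and 0.00642). The nearest to Plat were A130010J15Rik (0.18), Ccdc80, a matrix protein (0.20), and Cyp39a1 (0.21), of which Ccdc80 was called higher (adjusted p = 8.75e-05). The nearest to Serpinf1 were Pcna (0.09), Fcgrt (0.10) and Fkbp9 (0.12), and to Htra1 Chst11 (0.12), Fcgrt (0.14) and Mosmo (0.16), none of them called. Serpinb5 was closest to Ckap5 (0.17), Slc35f5 (0.19) and Rsl24d1 (0.20), and Plaur to Cenpp (0.52), Gm26177 (0.55) and Atg3 (0.57). With 6 samples in 2 groups, such closeness is given as a description.

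Among the tested members themselves, Serpine2 and Serpinf1 had the most similar profiles (0.19), followed by Serpinf1 and Htra1 (0.21) and Serpine2 and Htra1 (0.28). Plat lay 0.52 to 0.62 from these 3. Plaur was 1.47 or more from every other member, and Serpinb5 1.40 or more. The ratio of Serpinf1 to Serpine2 per kb of exon was 7.84, 7.13 and 6.09 in other tumor cells and 8.44, 7.06 and 5.86 in TICs. It overlapped between the groups (exact permutation p = 1). Both genes had been called higher in TICs, by similar folds (2.43 and 2.46), so this overlap was likely from the outset and is given as a description.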
